A study of Mus musculus with 3 samples.

Results

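The genes described here encode the proteins of the cytosolic ribosome, measured in mouse kidney after loss of the opposite kidney alone or together with banding of the abdominal aorta. Members were all genes whose single platform symbol is Rpl or Rps followed by a number and at most 1 letter and further digits, or is *Rpsa*, *Rplp0*, *Rplp1* or *Rplp2*. The rule found 49 of 18194 genes, 26 of the large and 23 of the small subunit, and used no measured difference. The probe set of highest mean signal stood for each gene. All mice were male C57BL/6J, 16 weeks old, and their single kidney was collected 6 weeks after uninephrectomy. The control group was 1 sample labelled uninephrectomy alone. The other group was 2 samples labelled cardio-renal syndrome, in which a constriction had been placed around the aorta below the branching of the renal arteries 2 weeks before the kidney was removed. The series' design text also lists sham operations without tying them to an array. No source used here says whether an array holds RNA of 1 mouse or of several.

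A ribosome has a small subunit, which holds the messenger RNA and reads its codons, and a large subunit, which joins the amino acids. Each ribosomal protein is needed in step with the others and with ribosomal RNA, and free ribosomal proteins are degraded or, in the case of Rpl11, bind the p53 regulator Mdm2. Most ribosomal protein mRNAs begin with a run of pyrimidines, the terminal oligopyrimidine or TOP tract, through which mTORC1 and the protein Larp1 set their translation. Their translation can therefore change with little change in mRNA, and mRNA signal is all that was measured here.

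The start regions of 9 members are shown for 2 sequence features that many members, but not all, hold and that the rule did not use. Each runs from 60 bases before to 20 bases from the annotated start (RefSeq, GRCm38.p6), 5′ to 3′ on the gene's strand. Capitals mark the letters CGGAAG on either strand, the core bound by ETS-family factors, and the first run of at least 5 pyrimidines that begins with C within 10 bases of the start. In *Rps7* the 2 features overlap, and *Rpl37* and *Rps15* have no such run. The windows of *Rpl35*, *Rplp2* and *Rps9* hold no CGGAAG.
Rpl35: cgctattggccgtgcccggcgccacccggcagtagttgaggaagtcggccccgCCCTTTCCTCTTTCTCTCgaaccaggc
Rpl37: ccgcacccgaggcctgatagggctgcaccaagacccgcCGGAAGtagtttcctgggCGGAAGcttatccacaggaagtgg
Rpl38: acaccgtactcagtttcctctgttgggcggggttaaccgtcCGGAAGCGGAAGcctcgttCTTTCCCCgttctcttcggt
Rplp2: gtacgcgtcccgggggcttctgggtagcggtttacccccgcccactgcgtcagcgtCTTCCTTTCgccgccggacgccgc
Rps6: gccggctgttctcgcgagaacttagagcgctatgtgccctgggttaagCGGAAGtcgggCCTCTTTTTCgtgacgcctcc
Rps7: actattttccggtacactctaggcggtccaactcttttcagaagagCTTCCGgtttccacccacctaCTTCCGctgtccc
Rps9: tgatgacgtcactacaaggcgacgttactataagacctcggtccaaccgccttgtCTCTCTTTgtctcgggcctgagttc
Rps10: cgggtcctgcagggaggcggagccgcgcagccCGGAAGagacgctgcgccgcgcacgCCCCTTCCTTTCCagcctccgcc
Rps15: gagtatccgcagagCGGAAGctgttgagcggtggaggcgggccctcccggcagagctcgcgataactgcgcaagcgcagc
The large subunit windows lie at chr2:39005112-39005191 on the minus strand (*Rpl35*), and on the plus strand at chr15:5116553-5116632 (*Rpl37*), chr11:114668520-114668599 (*Rpl38*) and chr7:141447591-141447670 (*Rplp2*). The small subunit windows lie on the minus strand at chr4:86857348-86857427 (*Rps6*), chr12:28635934-28636013 (*Rps7*) and chr17:27635225-27635304 (*Rps10*), and on the plus strand at chr7:3703981-3704060 (*Rps9*) and chr10:80292371-80292450 (*Rps15*).

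Of the members, 43 had an entry in the RefSeq promoter table, which runs from 250 bases before to 50 bases after a start. The letters CGGAAG were in the window of 30 of the 43 (69.8%), against 18.8% of all 27025 genes with an entry, counting a gene when any of its starts held them. They were found in 15 of 24 large and 15 of 19 small subunit genes. The GC box GGGCGG was in 25 members (58.1%, against 38.2% of all genes). The TATA box letters TATAAA were in 6 (14%, against 15.7%). All motifs were counted on both strands. A pyrimidine run of the kind in capitals, on the gene's strand, was found near a start in 27 members (62.8%, against 34.4% of all genes). CGGAAG read on the opposite strand holds pyrimidines, so these counts overlap. Among members that passed the signal filter, the 28 with CGGAAG differed from the uninephrectomy array by a median of -0.11 (array 1) and -0.0013 (array 2), and the 12 without it by -0.061 and -0.00096, on the log2 scale defined below. For GGGCGG the medians were -0.078 and 0.021 in the 24 members with it, and -0.073 and -0.049 in the 16 without. For TATAAA they were -0.13 and -0.051 in 6 with it, and -0.068 and 0.0013 in 34 without. For the pyrimidine run they were -0.069 and -0.0026 in 25 with it, and -0.086 and 0.0020 in 15 without. None of these differences was tested, and these matches are descriptions of letters, not of bound sites.

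The arrays had median signals between 100.1 and 105.9. Their brightest signals were lower on cardio-renal array 1, whose 99th percentile was 11420 against 12227 with uninephrectomy alone and 12519 on array 2. The 3'/5' ratio of the actin control lay between 1.72 and 1.73 and that of the Gapdh control between 0.732 and 0.782. Markers of kidney segments were present, with 5 of 5 proximal tubule, 2 of 2 thick ascending limb and 2 of 3 podocyte markers above the filter. Heart muscle markers had higher signals in both cardio-renal arrays for 9 of 9 genes, against 30.7% of all genes kept. Only 4 of these 9 markers were above the filter. Their summed signals over all 9 were 370.2, 2316 and 1682 in the order uninephrectomy, array 1, array 2, an order kept throughout. Lymphocyte markers had summed signals of 938.6, 2990 and 709.1, set apart on array 1 by the immunoglobulin heavy chain gene *Ighm* at 104, 2246 and 53.6. The part of either marker list in the results below was not tested. In whole kidney RNA, fewer cells of a type and less RNA per cell cannot be told apart.

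The median differences of the ribosomal protein genes were near 0. Differences are given on the log2(signal + 28.8) scale, cardio-renal minus uninephrectomy, where 1 is a doubling for a bright gene. Of the 49 members, 46 reached the filter on low signals, 24 of the large and 22 of the small subunit. *Rpl3l*, *Rpl39l* and *Rps16* did not. Large subunit genes had a median difference of -0.049 in array 1 and 0.013 in array 2. Small subunit genes had medians of -0.095 and -0.030. Over all 11145 genes kept the medians were 0.0085 and -0.0028, and over the 10% of genes with the highest mean levels they were -0.073 and 0.029. By the probe sets used, no member was at least 2-fold apart from the control in both comparisons, as 0.188% of all genes were. Only *Rps27* was 2-fold apart in 1 comparison. In limma's fit over all genes, 0 of the 46 members passed Benjamini-Hochberg adjustment, and 0 had an unadjusted p under 0.05. The same fit called 0% of all genes, 0 of 11145, with 280 at an unadjusted p under 0.05.

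**Figure D1:**
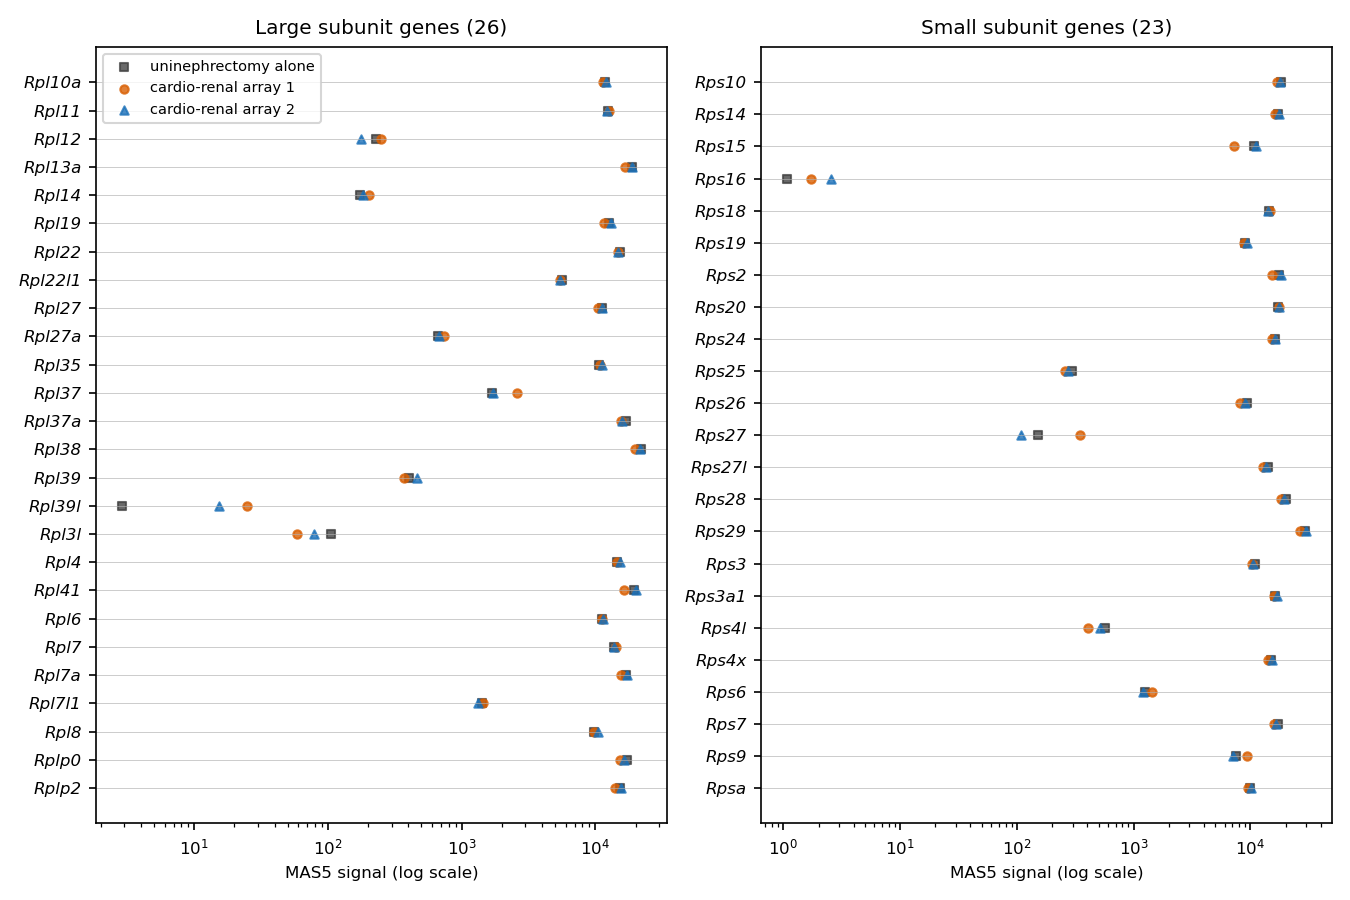
MAS5 signal on a log axis of each of the 49 ribosomal protein genes (rows) on the uninephrectomy array (squares), cardio-renal array 1 (circles) and cardio-renal array 2 (triangles), with the large subunit on the left and the small on the right. Symbols of a gene mostly overlie each other, and *Rpl39l*, *Rpl3l*, *Rps16* and *Rps27* show the widest gaps, all at low signals.

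The interval around these small values is wide. Its variance comes from the cardio-renal pair, with 1 residual degree of freedom, and is moderated by limma toward a trend over all genes. The 95% interval from limma reached a median of 0.48 to either side over the members and 0.46 over all genes, and among members from 0.38 to 1.2. It lay within 2-fold either way for 45 of the 46 members, all but *Rps27*, and within 1.5-fold for 32. A shift of the size of the medians was therefore not detectable gene by gene, and an exact permutation of 1 array against 2 cannot give a p under 0.333.

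Genes of both subunits were found on each side of the control, and the difference between the subunits was not tested. Of the 22 small subunit genes, 9 (40.9%) were under the control on both cardio-renal arrays and 1 (4.55%) was above it. Of the 24 large subunit genes, 5 (20.8%) were lower in both and 4 (16.7%) higher. Among all genes kept, 29.8% were lower in both and 30.7% higher in both. In the brightest 10% of genes these shares were 27.3% and 21%. Among the members with a mean signal of at least 5000, 7 of 18 small subunit genes were lower in both and 1 was higher, against 5 of 18 and 1 in the large subunit. Of the other genes at such signals 26.6% were lower in both and 20.7% higher in both. The bright members' array 2 medians were 0.0057 for the small and 0.0060 for the large subunit, so that the small subunit's -0.030 in array 2 turned sign without its dimmer probe sets. After quantile normalization the small subunit had 4 genes lower and 4 higher in both, and the large subunit 4 and 8. The shares of all genes under that scaling are not given here, so these counts have no background beside them. The subunits' medians in array 1 then turned positive, at 0.042 for the large and 0.048 for the small subunit, and those in array 2 stood at -0.011 and -0.055. Under that scaling the medians over all genes kept were -0.0016 and 0.0046, and over the brightest 10% they were 0 and 0.0029. Centring each array on its median kept array 1 at -0.057 and -0.10. The direction of either subunit in array 1 was thus turned by quantile normalization and not by median centring.

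**Figure D2:**
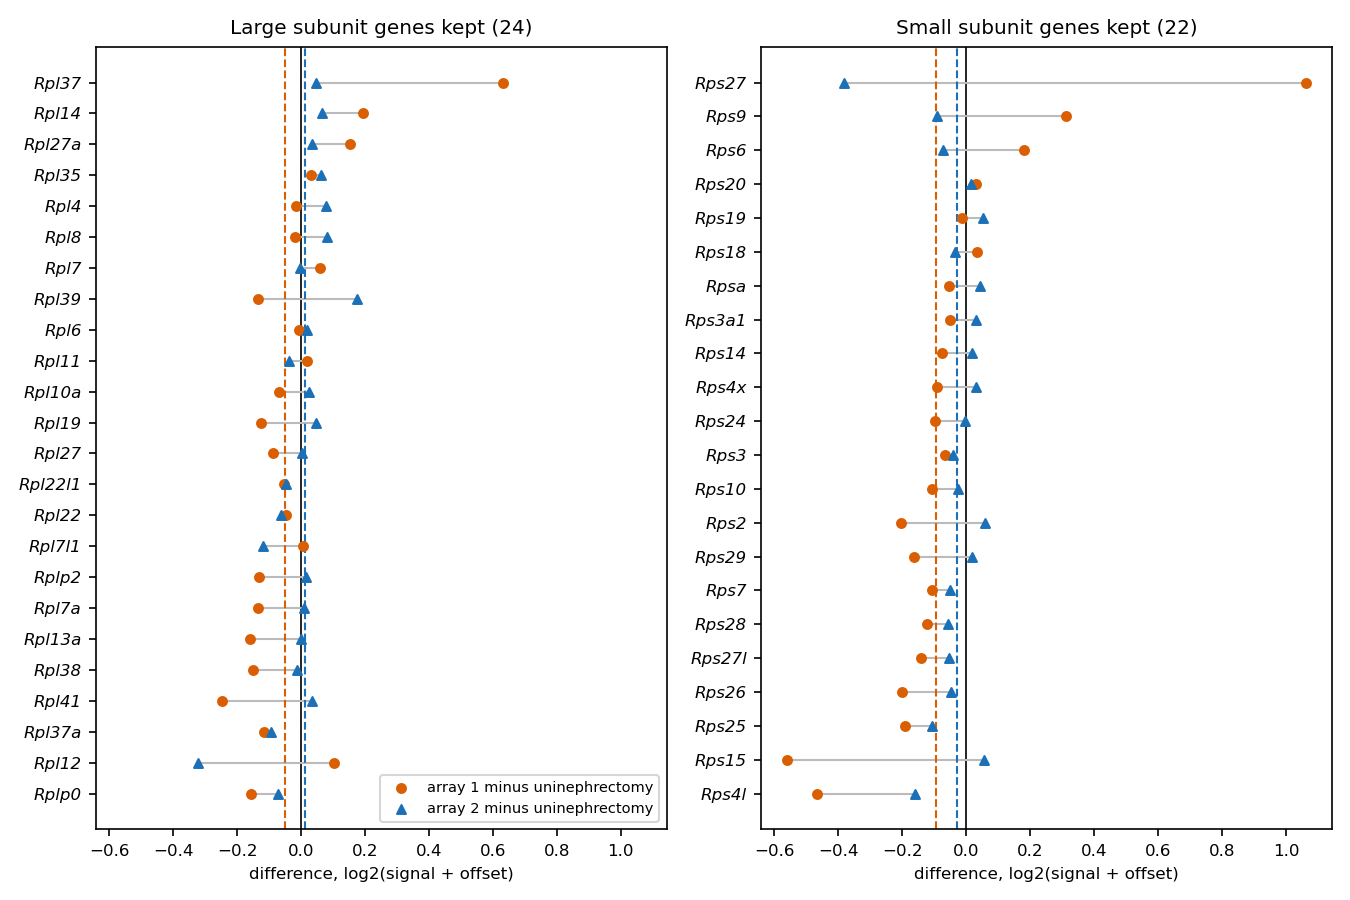
Difference of each kept gene from the uninephrectomy array on the log2(signal + 28.8) scale, array 1 as circles and array 2 as triangles, ordered by their mean, with the subunit's median in each array as a dashed line of the same colour. Most genes lie within 0.2 of 0, mostly with circles left of triangles, and *Rps27*, *Rpl37*, *Rps15*, *Rps4l* and *Rps9* reach furthest in array 1.

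Array 1 gave the lower values. Its signals were under those of the uninephrectomy array for 33 of the 46 members, against 48.4% of all genes and 67.9% of the brightest 10%, whereas in array 2 they were under it for 22 of 46, against 50.7% and 38.4%. Array 2 was above array 1 for 33 of 46 members (71.7%), against 46.9% of all genes and 71.2% of the brightest 10%, a comparison that does not use the control array. The probe sets of 36 members had a mean signal of at least 5000. Their medians were -0.089 in array 1 and 0.0060 in array 2. The 864 genes outside the rule at such signals had medians of -0.085 and 0.033. The 10 dimmer members that passed the filter went the other way, at 0.13 in array 1 and -0.089 in array 2 for their medians. With all genes kept sorted into 10 bins by level, the median in array 1 ran from 0.079 in the dimmest bin to -0.073 in the brightest, which holds 36 of the 46 members. The level of the probe sets moved with the members' difference in array 1, and its part in the result was not tested. Control probe sets for 18S ribosomal RNA, a small subunit RNA that the labelling does not aim at, were also lowest on array 1, at 22285, 18589 and 21481 for the 5′ part and 15778, 11607 and 14999 for the 3′ part.

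**Figure D3:**
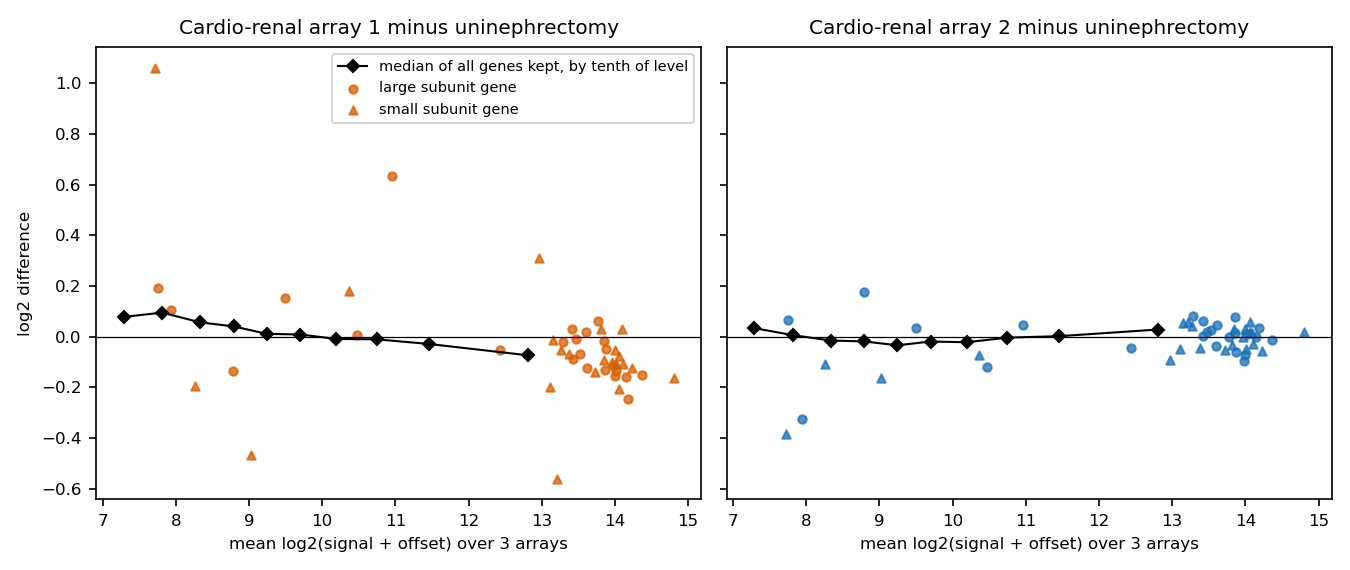
Difference from the uninephrectomy array against mean log2(signal + 28.8) for large (circles) and small (triangles) subunit genes, with diamonds for the median of all genes kept in each of 10 bins of level. In array 1 the diamonds run from 0.079 in the dimmest bin and 0.095 in the next down to -0.073 in the brightest, and the members lie mostly at the bright end under 0. In array 2 the diamonds stay near 0, while dim members reach from -0.38 (*Rps27*) to 0.18 (*Rpl39*).

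Members near the control on both arrays were counted by level, with no test between levels. In 19 of 46 members (41.3%) each cardio-renal value was within 0.1 of the control, against 17.2% of all genes and 27.6% of the brightest 10%. Among the lists described below, this share was 51.7% in initiation factors, 42.1% in other TOP mRNA genes and 39.5% in mitochondrial ribosomal proteins. It was 17.4% in genes that build the ribosome, 12.5% in the ribosomal stress list and 5.56% in RNA polymerase I genes. In mTORC1, LARP1 and MYC genes it was 0%. Members with signals of at least 5000 were within 0.1 in both arrays in 19 of 36 cases (52.8%), against 26.6% of the 864 other genes at such signals, and 0 of the 10 dimmer members were. The median size of the difference between the cardio-renal arrays was 0.091 in those 36 members and 0.16 in the other bright genes, and 0.28 in the 10 dimmer members. It was 0.076 in the initiation factors, 0.10 in the other TOP mRNA genes, and between 0.12 and 0.22 in the remaining lists of several genes. The probe sets used for 16 of the 49 members share sequence with other transcripts by their design and may measure more than 1 transcript.

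Among large subunit genes with lower signals in both arrays, *Rplp0* stood furthest by the mean. Its protein is the base of the stalk that recruits elongation factors. Its signals were 17176, 15427 and 16344, a mean difference of -0.11 ± 0.059 (SD, n = 2), and -0.046 after quantile normalization. Here and below, the SD is over differences from the same lone control array. It therefore leaves out variation of the control and is not the precision of the mean. *Rpl37a*, a zinc-binding protein of the large subunit, had signals of 16949, 15633 and 15875, a mean of -0.11 ± 0.016 (SD, n = 2). Both cardio-renal arrays were below the control in these probe sets. The other bright probe set of *Rpl37a* stood at -0.13 and 0.052. The mean of *Rpl37a* was -0.038 without probe sets of shared sequence and with quantile normalization, and -0.25 as the mean of its probe sets. The last value takes in a dimmer probe set, at 579.6, 494.1 and 271.2, whose mean was -0.62. *Rpl22* had 15348, 14858 and 14704 (-0.054 ± 0.011, SD, n = 2), with the opposite sign after quantile normalization and as the mean of its 3 probe sets. *Rpl38*, known in mice for its part in the translation of Hox mRNAs, had 21858, 19704 and 21666 (-0.081 ± 0.097, SD, n = 2). Its array 2 value was nearly that of the control, and quantile normalization gave it a mean of 0.016. In limma's fit the adjusted p of each of these genes was 0.9998, the value that every one of the 46 members fitted had.

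The large subunit genes with higher signals in both arrays were mostly measured by dim probe sets. *Rpl37* had signals of 1673, 2610 and 1729, so that array 1 alone stood apart, with differences of 0.63 and 0.047. *Rpl14* had 174.8, 204.1 and 184.2 (0.13 ± 0.091, SD, n = 2). *Rpl27a* had 663.3, 740.4 and 680.1 (0.093 ± 0.083, SD, n = 2). *Rpl35*, a protein beside the exit of the nascent chain tunnel, was the only bright one, at 10657, 10892 and 11134 (0.047 ± 0.022, SD, n = 2). Without probe sets of shared sequence its sign turned, to -0.024, and its mean was 0.086 after quantile normalization and 0.024 as the mean of its probe sets.

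Of the small subunit genes lower in both arrays, *Rps25*, whose protein many viral internal ribosome entry sites need, had signals of 298.7, 257.8 and 275.6, a mean of -0.15 ± 0.061 (SD, n = 2). *Rps28*, a protein of the mRNA exit channel region, had 19991, 18369 and 19222 (-0.089 ± 0.046, SD, n = 2). *Rps7*, needed to mature the small subunit's RNA, had 17133, 15914 and 16551 (-0.078 ± 0.040, SD, n = 2). In these probe sets of all 3, array 1 was the lowest array and the control the highest. The second bright probe set of *Rps7* had 12996, 13826 and 12743, with array 1 the highest. Quantile normalization gave means of -0.013 for *Rps7* and -0.020 for *Rps28*, and the mean of probe sets gave -0.024 for *Rps7*. *Rps26*, *Rps3*, *Rps10* and *Rps24* completed the set with the paralogs *Rps4l* and *Rps27l* described below. *Rps24* was only -0.0026 from the control in array 2, and its other probe sets above the filter ran from -0.083 to 0.22 in array 1. A dimmer probe set of *Rps3* was higher in both, at 0.25 and 0.12. A bright probe set of *Rps10* stood at 0.57 and -0.75, while its others above the filter were lower in both. *Rps20* was the only small subunit gene that passed the filter with higher signals in both, at 17309, 17677 and 17479 (0.022 ± 0.011, SD, n = 2). Its other bright probe set had 15719, 15386 and 14881 and was lower in both, at -0.031 and -0.079. The mean of *Rps20* was 0.093 after quantile normalization and 0.14 as the mean of its probe sets. The latter takes in probe sets under the filter on low signals, at means of 0.36 and 0.23.

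Other members known for a particular role had differences between -0.16 and 0.18. *Rpl11*, which binds Mdm2 when ribosome assembly fails, had signals of 12483, 12661 and 12172, differences of 0.020 and -0.036. *Rps3*, a protein of the mRNA entry channel, had 10871, 10379 and 10551 (-0.067 and -0.043). *Rps19*, mutated in many cases of Diamond-Blackfan anaemia, had 8964, 8887 and 9306 (-0.012 and 0.054). The control array lay between the cardio-renal arrays for *Rpl11* and *Rps19*, and also for *Rpsa*, *Rpl13a*, *Rplp2* and *Rps6*, which are given next. *Rpsa*, the laminin receptor homologue at the small subunit's exit side, had 9869, 9505 and 10172 (-0.054 and 0.043). *Rpl13a*, a protein also known outside the ribosome in interferon-gamma-induced silencing of translation, had 18769, 16803 and 18778 (-0.16 and 0.00067). *Rplp2*, an acidic protein of the stalk, had 15292, 13966 and 15464 (-0.13 and 0.016). Array 1 was the lowest for each of these 3. *Rps6*, the substrate of S6 kinase, was measured by a probe set of lower signal, at 1259, 1431 and 1195 (0.18 and -0.073).

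The members' differences were larger in median size on array 1 (0.11 over all members kept) than on array 2 (0.047). *Rps15*, *Rps9* and *Rps27* were among those furthest from the control on array 1. *Rps15* had signals of 10634, 7207 and 11059, differences of -0.56 and 0.056. Its other probe set had 8839, 8484 and 8552, differences of -0.059 and -0.047, so the low value on array 1 was not shared by both. *Rps9* had 7582, 9412 and 7115, differences of 0.31 and -0.091, and its second bright probe set had 7423, 7853 and 7612 (0.081 and 0.036). *Rps27*, through its single-symbol probe set, had 151.1, 347 and 109.1, differences of 1.06 and -0.38, the latter the furthest from 0 of any kept member on array 2. The cardio-renal arrays lay on opposite sides of the control for *Rps15*, *Rps9* and *Rps27*. Among bright members, *Rpl41* (19503, 16445 and 19989) and *Rps2* (17626, 15295 and 18364) were the next lowest on array 1, at -0.25 and -0.20, and both were slightly above the control on array 2.

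Paralogs of ribosomal proteins are expressed in particular tissues or states and can take their parent's place. The rule holds 6 that had a named probe set. *Rpl22l1*, which can replace Rpl22, had signals of 5621, 5423 and 5445 (-0.049 ± 0.0042, SD, n = 2), beside -0.054 for *Rpl22* itself, and -0.025 after quantile normalization. *Rpl7l1*, a homologue of Rpl7 that acts in ribosome assembly, had 1431, 1437 and 1317 (0.0058 and -0.12), while *Rpl7* had 13793, 14388 and 13775 (0.061 and -0.0018). *Rps27l*, a p53 target gene, had 14157, 12844 and 13636 (-0.097 ± 0.061, SD, n = 2), and -0.038 after quantile normalization. All 3 of its probe sets were lower in both arrays. *Rps4l* had 573.1, 406.3 and 509.2 (-0.31 ± 0.22, SD, n = 2), the lowest mean of all members kept, with an unadjusted p of 0.181 in limma's fit and an adjusted p of 0.9998. Its X-linked parent *Rps4x* had 14967, 14039 and 15289 (-0.092 and 0.031). The 2 paralogs below the filter were *Rpl39l*, best known from testis, at 2.89, 24.7 and 15.3, and *Rpl3l*, the form of Rpl3 found in heart and skeletal muscle, at 105.6, 58.6 and 78.6. The parent *Rpl39* had 407.1, 368.5 and 463.4 (-0.13 and 0.18). *Rpl3l* was thus lower in both cardio-renal arrays, where the 9 heart muscle markers were higher, at signals near or below the arrays' medians.

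Where several probe sets measured a gene, their range was mostly wider than the median size of the members' differences. Of 105 probe sets that name a member alone, 89 reached the filter, and 20 genes had more than 1 of these. In 7 of the 20, all probe sets had the same sign in array 1, and in 7 of the 20 they did in array 2. The median range over the probe sets of a gene was 0.20 in array 1 and 0.13 in array 2. The median size of the difference over all members kept was 0.11 and 0.047. Further, 110 probe sets list several symbols, at least 1 of which fits the rule, mostly a gene with its pseudogenes, and were not named. The 99 of them above the filter stood at a median of -0.034 (array 1) and -0.0016 (array 2), with 28 (28.3%) lower in both arrays and 20 (20.2%) higher. A further 28 symbols that fit the rule occur in such probe sets only and were not analysed here. Low signals of *Rps16* (1.08, 1.72 and 2.55), *Rps27*, *Rpl12* (228.9, 248.2 and 177.2) and *Rps25* come from single-symbol probe sets and give no level for the gene.

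**Figure D4:**
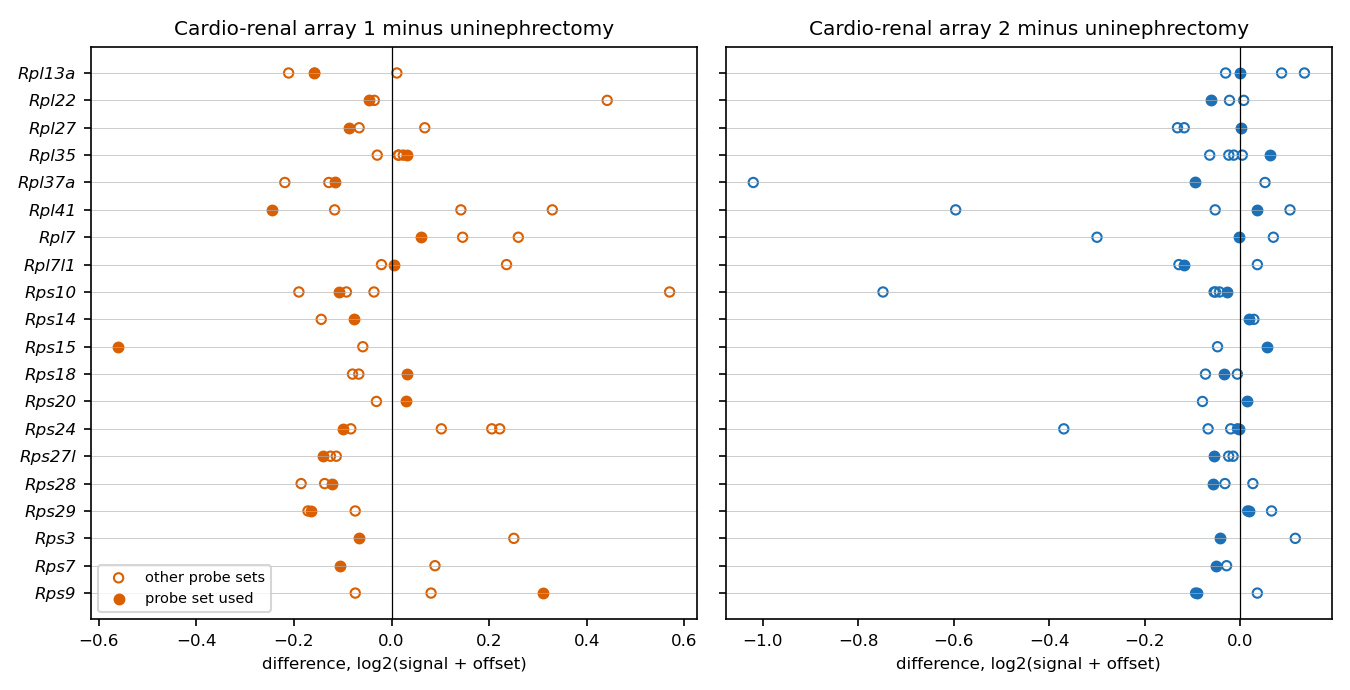
Difference from the uninephrectomy array for every probe set above the filter in the 20 genes that have more than 1, with the probe set used filled and the others open, array 1 on the left and array 2 on the right. Probe sets of *Rps27l* lie together, those of *Rps10*, *Rps24* and *Rpl41* lie on both sides of 0 in array 1, and *Rps15* shows its used probe set at -0.56 and its other at -0.059.

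Other genes of protein synthesis were read from fixed lists, and 0 genes of any list passed limma's adjusted p. *Fau*, whose product carries ribosomal protein S30, was the 1 ribosomal protein gene outside the symbol rule with a named probe set, and had signals of 12628, 11289 and 12047 (-0.16 and -0.068). For the counts of each list, 29.8% of all genes kept were lower in both arrays and 30.7% higher in both. The other TOP mRNA genes had medians of 0.011 in each array, with 3 of 19 lower in both and 5 higher. *Gas5*, a non-coding TOP transcript that hosts small nucleolar RNAs, had 3025, 3687 and 3489 (0.24 ± 0.056, SD, n = 2). *Eef1d* (0.083) and *Eef1b2* (-0.036), subunits of the elongation factor exchange complex, and *Eif3h* (-0.075) gave the other mean differences named by rule. Initiation factors had medians of -0.025 and -0.0027, with 11 of 29 lower in both and 7 higher. The cap-binding homologue *Eif4e2* stood at -0.25 ± 0.024 (SD, n = 2) and the helicase *Eif4a2* at 0.11 ± 0.064. *Eif2b4*, a subunit of the eIF2 exchange factor, stood at -0.24 and *Eif3m* at 0.036.

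Genes that build the ribosome had medians of 0.045 and -0.043, with 15 of 46 lower in both arrays and 12 higher. The shares of all genes kept, for this list and the next 2, were 29.8% lower in both and 30.7% higher. *Nop56*, a core protein of the box C/D particles that modify ribosomal RNA, had signals of 485.4, 403.9 and 375.4 (-0.30 ± 0.070, SD, n = 2). *Utp20*, of the small subunit processome, had 815.8, 1225 and 1002 (0.43 ± 0.20, SD, n = 2). *Tcof1*, which supports transcription of ribosomal RNA genes, stood at 0.30 and *Nop14* at -0.27. RNA polymerase I genes had medians of 0.060 and -0.081, with 4 of 18 lower in both and 5 higher, and *Ubtf*, the factor that binds ribosomal RNA genes, stood at -0.21 ± 0.092 (SD, n = 2). *Taf1b*, of the promoter selectivity complex, stood at -0.13, and the shared polymerase subunits *Polr2h* and *Polr2f* at 0.17 and 0.10. The 76 mitochondrial ribosomal protein genes, which serve the separate ribosome of that organelle, had medians of -0.027 and 0.052, with 14 lower in both and 19 higher. *Mrpl27* had 1893, 2660 and 2884 (0.54 ± 0.082, SD, n = 2), *Mrpl19* stood at 0.42, and *Mrpl49* and *Mrpl47* stood at -0.20 and -0.13.

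Among genes that control ribosome production, single genes lay further from the control array while the medians stayed small. The list of mTORC1, LARP1 and MYC genes had medians of 0.0035 and 0.033, with 6 of 23 lower in both arrays and 8 higher. Of all genes kept, 29.8% were lower in both and 30.7% higher. *Sesn2*, an inhibitor of mTORC1, had signals of 318.6, 588.5 and 472.8 (0.68 ± 0.21, SD, n = 2). *Ddit4*, another inhibitor of mTORC1, had 1324, 795 and 982.2 (-0.57 ± 0.21, SD, n = 2). The control lay outside the cardio-renal pair for both, on opposite sides. *Eif4ebp2*, a repressor of cap-dependent translation, stood at -0.29 ± 0.026 (SD, n = 2) and *Mycn* at 0.48 ± 0.20. The ribosomal stress list had medians of 0.095 and 0.15 over 8 genes, with 2 lower in both and 4 higher, against the same shares of all genes. Its cell cycle inhibitor *Cdkn1a* had 292.3, 405.1 and 593.8 (0.69 ± 0.37, SD, n = 2), and the apoptosis gene *Bbc3* stood at 0.57. *Mdm2* (-0.086) and *Ccng1* (-0.041) stood slightly below the control. Markers of proliferating cells, which make many ribosomes, were lower in both arrays for 4 of 7 genes and higher for 1. Among all genes kept, 29.8% were lower in both and 30.7% higher. *Mki67*, which was lower in both, did not reach the filter. The summed signals of 4388, 4288 and 4587 were mostly those of *Pcna* (3180, 3357 and 3284), the marker that was higher.

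**Figure D5:**
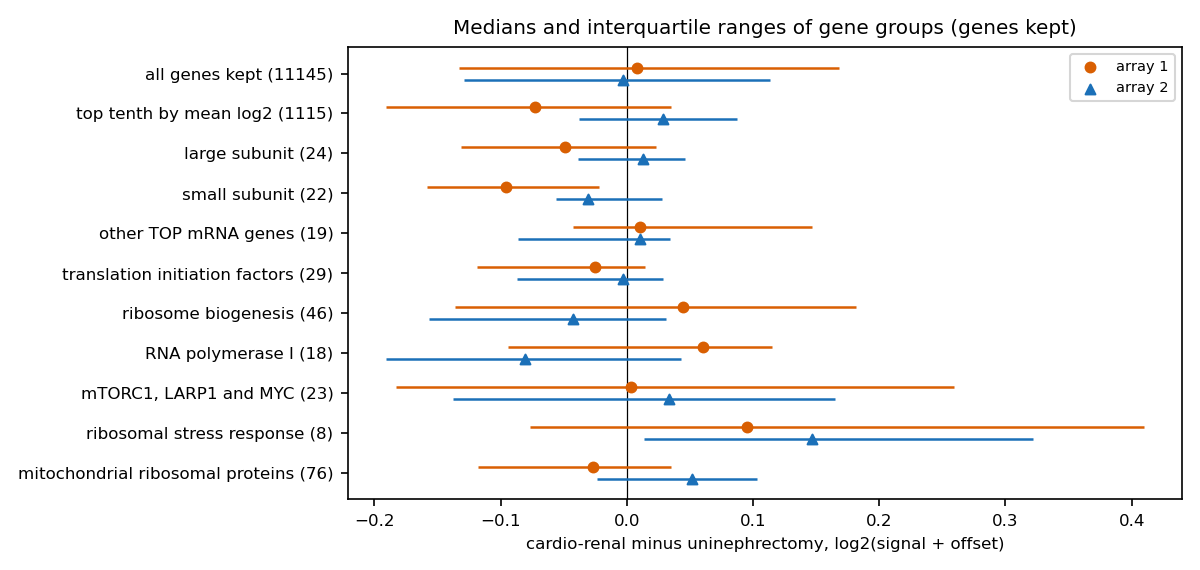
Median (symbol) and interquartile range (line) of the difference from the uninephrectomy array for each group of genes kept, array 1 as circles and array 2 as triangles, with the number of genes in brackets. The subunits' medians lie between -0.095 and 0.013, beside -0.073 and 0.029 for the brightest 10% of genes.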

How the data were processed

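Kidney RNA from 3 samples was labelled from 250 ng of total RNA with a 3' in vitro transcription kit and hybridised to 1 Affymetrix array each, per the labels' protocols. The authors deposited linear intensities, MAS5 signals per the submitters' processing notes, for 45101 probe sets. Each array's mean signal, trimmed by 2% at each end, was 500, so no further scaling was applied. The number of arrays limits the precision.

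Probe sets with 1 symbol in the platform annotation were named, with symbols updated through the Entrez ID in a RefSeq table, and the probe set of highest mean signal was taken for each of 18194 genes. Signals were turned into log2(signal + 28.8), where the offset is the arrays' median 25th percentile. Genes with a mean of at least 7.02, the median of all probe sets, were kept, which left 11145. The fit used limma 3.58.1 in R 4.3.3 (lmFit, eBayes with a trend, two-sided, Benjamini-Hochberg at 0.05 over all genes kept). It had 1 residual degree of freedom. It assumes that the lone uninephrectomy array varies like the cardio-renal pair. The labels do not say that the arrays hold separate animals, so the spread behind a p-value may be technical.

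Members, lists and tests were chosen with earlier results of these data known. Members described in full were in each subunit, the 5 with the largest consistent excess over the control array and the 5 with the largest deficit, ranked by the smaller of a gene's differences, the paralogs with their parent genes, the stalk genes and members with a textbook functional site. Of each other list, up to 2 genes on either side were named by the same ranking. *Rps9*, *Rps15*, *Rps2* and *Rpl41* were named after their values were seen. Alternatives changed the scaling, offset, filter, probe sets, arrays and fit.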

Additional observations from a re-analysis of the deposited data

How the results depend on the processing

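The count of members that passed limma's adjusted p was 0 under each scaling, offset, filter, probe set rule and form of the trend that was run. Leaving out a cardio-renal array leaves 1 array against 1, so no test could be made there. Quantile normalization gave median differences of 0.013 for the large and 0.0082 for the small subunit, against -0.040 and -0.053 as deposited, with 8 large subunit genes higher in both arrays and 4 small subunit genes lower and 4 higher in both. The counts have no share of all genes under that scaling beside them, and the cause of these changes was not tested. Small subunit genes higher in both numbered 2 without a filter, 4 with the mean of probe sets and 0 without shared-sequence probe sets. With only members of mean signal at least 5000, chosen after seeing the data, 1 large subunit gene was higher in both, and the small subunit's array 2 median was 0.0057 against -0.030. Leaving out one or the other cardio-renal array gave large subunit medians from -0.049 to 0.013 and small subunit medians from -0.095 to -0.030. Without array 1, so that array 2 alone was counted, 9 large and 13 small subunit genes were lower and 15 and 9 higher. Without array 2 there were 16 and 17 lower and 8 and 5 higher. Of the 15 members named by rank, 2 changed sign with quantile normalization, 1 with the mean of probe sets and 1 of 12 without shared-sequence probe sets. With quantile normalization 6 of the 15 moved by less than the spread between the cardio-renal arrays, and several shrank toward 0, such as *Rps7* from -0.078 to -0.013, *Rps28* from -0.089 to -0.020, *Rpl37a* from -0.11 to -0.038 and *Rplp0* from -0.11 to -0.046. Centring on the median and the other offsets turned none of them. No paired analysis was possible because the groups share only 1 replicate number, given in accession order. The lack of a second control array limits all values, and probe sets of low signal, such as that of *Rps16*, give no usable difference.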
